A study of Mus musculus with 8 samples.

Results

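Complex I (NADH:ubiquinone oxidoreductase) is the entry point of electrons into the mitochondrial electron transfer chain, and its genes were examined in primordial follicles of mice descended from founders that had received extra mitochondria as oocytes. The members were all genes whose symbol starts with Nduf, 42 of the 26586 genes listed. Of these, 36 encode subunits of the complex and 4 encode assembly factors, which carry the prefix Ndufaf (Ndufaf1 to Ndufaf4). The other 2, Ndufa4 and Ndufa4l2, carry the name but are not subunits of complex I. An expression filter kept 13873 genes, among them 40 Nduf genes, namely 35 subunits, all 4 Ndufaf genes and Ndufa4. Ndufa8 and Ndufa4l2 did not pass it.

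Complex I takes electrons from NADH through its N module, passes them along iron-sulphur clusters to ubiquinone in its Q module, and pumps protons through a membrane arm with a proximal and a distal part. The core subunits carry out this chemistry, and accessory subunits surround them and are needed for stability and assembly. Assembly factors help to build the modules and are absent from the finished enzyme. Oocytes hold many mitochondria, and early oocytes of humans and frogs keep complex I activity low. The subunits encoded by mtDNA, and Ndufb1, were not analysed here.

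Follicles were taken by enzyme digestion from ovaries on postnatal day 3, in mice of the C57Bl/6 x CBA background, and RNA-Seq covered 4 control samples and 4 mitochondrial supplemented (mito-supplemented) samples. The mito-supplemented samples were of the third generation, descended through the female line from founders whose oocytes, of an F1 cross between C57BL6/J/MARP and CBA/MARP, had been given mitochondria of egg precursor cells together with a spermatozoon at intracytoplasmic sperm injection, so that these follicles had not been supplemented themselves. The control samples came from control mice of the same strain background. Each sample was a pool of follicles from an ovary whose RNA was amplified before ribosomal RNA was removed and libraries were sequenced, and the mother or litter behind each sample was not given, so that the p values measure the spread between these samples. The sample labels share prefixes whose meaning was not given, 280 for control replicates 1 and 2, 301 for control replicates 3 and 4, C56 for mito-supplemented replicates 1 to 3 and C60 for mito-supplemented replicate 4 alone.

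The values were counts of reads on annotated exons, and the libraries held between 10370045 and 19760763 counts. The ribosomal RNA genes of mtDNA, Rnr1 and Rnr2, took 19.4%, 37.8%, 36.6% and 74.0% of all counts in the controls (replicates 1 to 4) and 14.9%, 44.3%, 34.8% and 42.2% in the mito-supplemented libraries (replicates 1 to 4). Control replicate 4 was therefore the shallowest library, with 2559876 counts outside ribosomal RNA against 7280214 to 15778975 in the others. Nduf genes took 24745, 8559, 12586 and 3831 counts in the controls and 14393, 7996, 14987 and 12106 in the mito-supplemented libraries. These counts were 0.182%, 0.105%, 0.116% and 0.150% of those outside ribosomal RNA in the controls and 0.0912%, 0.110%, 0.146% and 0.163% in the mito-supplemented libraries, and the groups overlapped. The 95% binomial intervals (exact Clopper-Pearson) of these shares were narrow, 0.180% to 0.184% in control replicate 1 and 0.145% to 0.154% in control replicate 4, and, reads being amplified, such intervals describe the error of counting alone.

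No Nduf gene passed the test between the groups. With edgeR's quasi-likelihood test and p values adjusted over all genes (Benjamini-Hochberg), 0 of 40 Nduf genes and 0 of all 13873 (0%) passed both thresholds, an adjusted p under 0.05 and a 2-fold difference. The lowest adjusted p value was 0.626 among the Nduf genes and 0.418 among all genes. At an unadjusted p value under 0.05, 1 Nduf gene was lower in mito-supplemented samples (Ndufb7), beside 2.4% of all genes, and 0 were higher, beside 5.31% of all genes. The edgeR likelihood ratio test called 0 Nduf genes and 58 genes in all (0.418%), and DESeq2 called 0 Nduf genes and 141 in all (1.02%). With limma-voom and sample quality weights, 1 Nduf gene was called lower, again Ndufb7, and 0 higher, where 8.22% of all genes were called lower and 10.4% higher. The 95% interval of the log2 fold change included 0 for 39 of the 40 Nduf genes, and these intervals reached down to -3.34 and up to 2.14. They were too wide to show that any gene was at the same level in both groups.

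**Figure D1:**
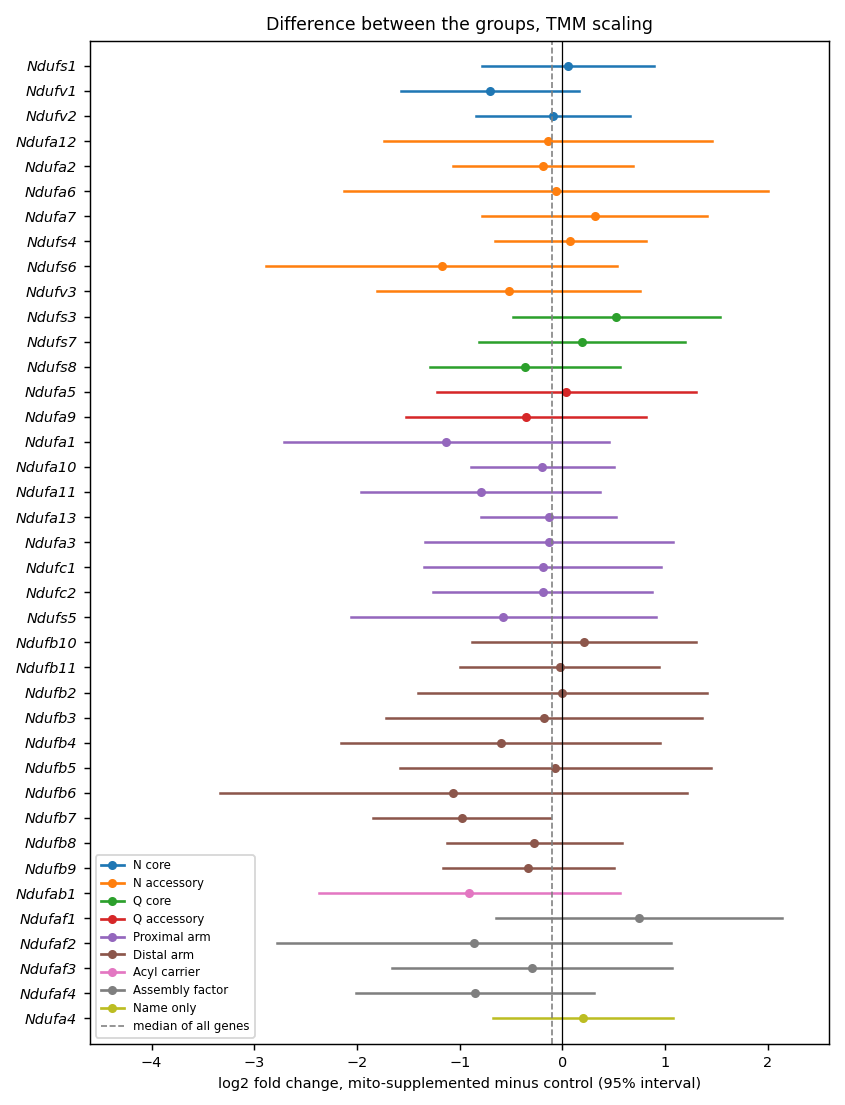
Log2 fold change of 39 Nduf genes (mito-supplemented minus control, TMM scaling), with the 95% interval from edgeR's quasi-likelihood fit, coloured by the part of complex I, and with a dashed line at the median of all genes (-0.10). The interval of Ndufb7 ends at -0.12 and the others include 0, and while 31 of the 40 genes tested were below 0 with this scaling, 17 were when libraries were scaled by size only.

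Ndufb7, an accessory subunit of the distal membrane arm that faces the intermembrane space, had the lowest p value of the Nduf genes tested (chr8:83566671-83571626 of GRCm38). It was at 22.4, 21.5, 20.9 and 18.6 CPM (counts scaled to a common library size, with TMM normalization) in control replicates 1 to 4, against 14.1, 11.4, 9.26 and 7.51 CPM in mito-supplemented replicates 1 to 4. Every control library was therefore above every mito-supplemented library, with means of 20.8 ± 1.64 and 10.5 ± 2.83 CPM (SD, n = 4). These levels rested on 94 to 546 counts in controls against 108 to 290 in mito-supplemented libraries. Its log2 fold change was -0.98 (SE, the standard error, 0.39, 95% interval -1.85 to -0.12), with an adjusted p of 0.626 in edgeR's quasi-likelihood test. The unadjusted p was 0.0298, and the exact permutation test over libraries (two-sided) gave p = 0.0286, the smallest that 4 against 4 allows. With limma-voom and quality weights the log2 fold change was -1.04 and the adjusted p 0.0254, the lowest of a range that reached 0.971 over the other settings. The log2 fold change stayed between -1.12 and -0.82 when each library was left out in turn. With scaling by library size only, it was -0.74 and the groups overlapped. The unadjusted p of Ndufb7 was 0.05 or more with that scaling, with a replicate block, without an expression filter, with counts summed by label prefix, and without control replicates 2 or 3 or mito-supplemented replicates 2, 3 or 4. None of its exons overlapped another gene, and no near-identical copy was found.

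The groups did not overlap for 2 of the 40 Nduf genes, both lower in mito-supplemented samples, where 2.03% of all genes were lower and 3% higher without overlap. The other was Ndufab1 (chr7:122085403-122101886), the mitochondrial acyl carrier protein, which is a subunit of complex I and also serves mitochondrial fatty acid and lipoate synthesis. Its levels were low, at 5.46, 2.77, 3.09 and 3.95 CPM in control replicates 1 to 4, against 2.13, 1.66, 2.04 and 2.29 CPM in mito-supplemented replicates 1 to 4. Control replicate 2, the lowest control, lay a little above mito-supplemented replicate 4, the highest of its group. The log2 fold change was -0.91 (SE 0.66, adjusted p = 0.731 in edgeR's quasi-likelihood test), so that the interval, -2.37 to 0.56, included 0. Ndufab1 is uncertain, since its transcript shares stretches of up to 469 bases with 2 pseudogene copies and how the counting treated reads with more than 1 match was not given. With scaling by library size only, 0 Nduf genes were free of overlap.

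Ndufa4l2, a paralogue of Ndufa4 that is induced in hypoxia and lowers complex I activity, was too low to be tested (chr10:127514967-127517154). It had 5, 34, 17 and 18 counts in control replicates 1 to 4, against 1, 0, 1 and 0 counts in mito-supplemented replicates 1 to 4, and the groups did not overlap. The means were 1.86 ± 1.54 CPM for controls and 0.0235 ± 0.0271 CPM for mito-supplemented samples (SD, n = 4; exact permutation test, two-sided, p = 0.0286). Over the summed counts, 74 against 2, the level was 44.4 times as high in controls, with a 95% counting interval from 11.9 to 374. Leaving out control replicate 1 gave a ratio of 70.1, and leaving out control replicate 2 gave 30.5. Without the expression filter, Ndufa4l2 had an unadjusted p of 0.00464 and an adjusted p of 0.621 in edgeR's quasi-likelihood test. In the other settings the adjusted p was between 0.252 and 0.971, but there Ndufa4l2 had passed the filter through its control counts alone. Its exons overlap those of Shmt2, and reads from these genes may not be told apart where the strand setting of the counting is not known. The same holds for 18 of the 40 Nduf genes tested, among them Ndufab1, Ndufs1, Ndufs3, Ndufs6, Ndufb2, Ndufb6, Ndufb8, Ndufb9, Ndufaf2 and Ndufaf3, whose exons overlap those of other genes. Ndufa4, now known as a subunit of complex IV, had the highest level per kilobase of all Nduf genes, 97.3 CPM per kilobase, and its groups overlapped (55.2 ± 19.0 and 63.5 ± 26.8 CPM, SD, n = 4, log2 fold change 0.20, SE 0.39).

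**Figure D2:**
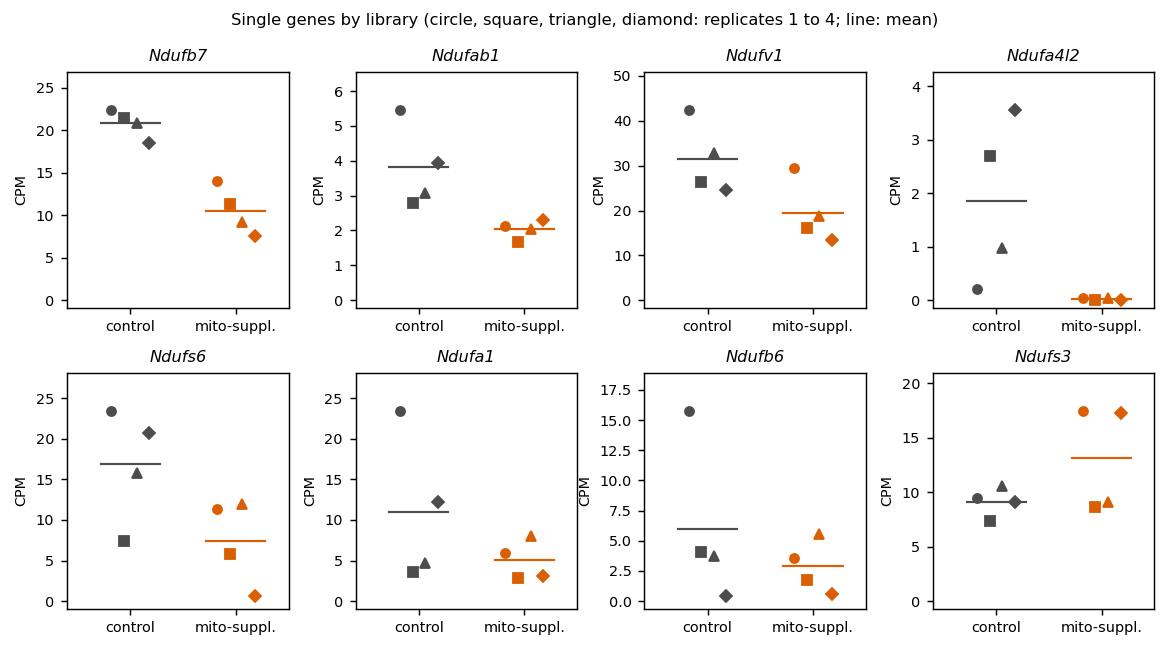
TMM-normalized CPM of 8 Nduf genes in each library, with controls in grey, mito-supplemented samples in orange, a symbol for each replicate number and a line at the mean. Groups do not overlap for Ndufb7, Ndufab1 and Ndufa4l2. Control replicate 1 carries the difference in Ndufb6 and widens it in Ndufa1, and mito-supplemented replicate 4 widens it in Ndufs6.

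The core subunits described next had unadjusted p values of 0.05 or more in edgeR's quasi-likelihood test on all 8 libraries with TMM scaling, and the groups overlapped for each of them. In the N module, Ndufv1, which binds FMN and accepts the electrons of NADH, was at 42.4, 26.3, 32.9 and 24.7 CPM in control replicates 1 to 4, against 29.5, 16.0, 18.7 and 13.3 CPM in mito-supplemented replicates 1 to 4. Mito-supplemented replicates 2 to 4 were below every control, and replicate 1 was not. Its log2 fold change was -0.71 (SE 0.39, adjusted p = 0.681 in edgeR's quasi-likelihood test), between -0.95 and -0.51 over the fits that each lacked 1 library. The unadjusted p of Ndufv1 was 0.0994, but 0.0442 without mito-supplemented replicate 1 and 0.0136 with limma-voom and quality weights, where the adjusted p was 0.0585, the lowest of a range that reached 0.971. The iron-sulphur subunits Ndufv2 and Ndufs1, also of the N module, had log2 fold changes of -0.09 (SE 0.34) and 0.05 (SE 0.38). In the Q module, Ndufs3 had the largest positive value of the subunits in this test, 0.53 (SE 0.45), but 0.06 with limma-voom and quality weights, from 9.12 ± 1.33 to 13.1 ± 4.91 CPM (SD, n = 4). Mito-supplemented replicates 1 and 4 were above all controls, at 17.5 and 17.3 CPM, while replicates 2 and 3, at 8.66 and 9.12 CPM, lay within the control range of 7.37 to 10.6 CPM. Ndufs3 also shares up to 792 bases with a pseudogene copy. Ndufs7, which holds the last iron-sulphur cluster before ubiquinone, and Ndufs8, whose clusters pass electrons on to it, had log2 fold changes of 0.19 and -0.36 (SEs 0.45 and 0.42). With scaling by library size only, the value of Ndufv2 turned positive (0.29).

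Among the 28 accessory subunits tested, 24 had a log2 fold change below 0 under TMM scaling, but 13 did with library size only. In the proximal arm this held for 8 of 8 tested, with a median of -0.19, but for 3 of 8 with library size only, with a median of 0.07, and for 7 of 8 without control replicate 1. In the distal arm it held for 9 of 10, with a median of -0.23, but for 5 of 10 with library size only, with a median of -0.03, and for 5 of 10 without control replicate 1, with a median of -0.04. In the N module it held for 5 of 7 accessory subunits under TMM scaling, 3 of 7 with library size only and 4 of 7 without control replicate 1, and in the Q module for 1, 1 and 0 of 2.

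The most negative values belonged to Ndufs6, Ndufa1 and Ndufb6, and each leaned on single libraries. Ndufs6, a zinc-binding subunit that joins late with the N module, was at 23.4, 7.37, 15.8 and 20.7 CPM in control replicates 1 to 4, against 11.4, 5.82, 11.9 and 0.626 CPM in mito-supplemented replicates 1 to 4. Mito-supplemented replicate 4 had 9 counts of it, and the groups overlapped (log2 fold change -1.18, SE 0.77). Without that library the value was -0.76. Ndufa1, an X-linked subunit of the proximal arm needed for assembly, was at 23.4, 3.57, 4.75 and 12.2 CPM in controls against 5.97, 2.91, 8.08 and 3.13 CPM in mito-supplemented samples, and its log2 fold change of -1.13 (SE 0.71) was -0.41 without control replicate 1 and 0.08 with limma-voom and quality weights. Ndufb6, of the distal arm, was at 15.8 CPM in control replicate 1 and 0.395 to 4.04 CPM in the other controls, against 0.626 to 5.54 CPM in mito-supplemented samples. Its log2 fold change of -1.06 (SE 1.02) turned to 0.09 without control replicate 1.

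The 3 largest positive values among the accessory subunits were small. Ndufa7, of the N module, had a log2 fold change of 0.32 (SE 0.49), Ndufb10, of the distal arm, 0.21 (SE 0.49), and Ndufs4, a late-joining N module subunit whose loss causes Leigh-like disease in mice, 0.08 (SE 0.33). For Ndufa7 and Ndufb10 the highest library was mito-supplemented replicate 4, at 50.4 and 29.9 CPM. Without that library the values were -0.18 and -0.25. Ndufs4 was steady, between 18.6 and 30.2 CPM over the 8 libraries, and its value turned to -0.0023 without control replicate 1.

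**Figure D3:**
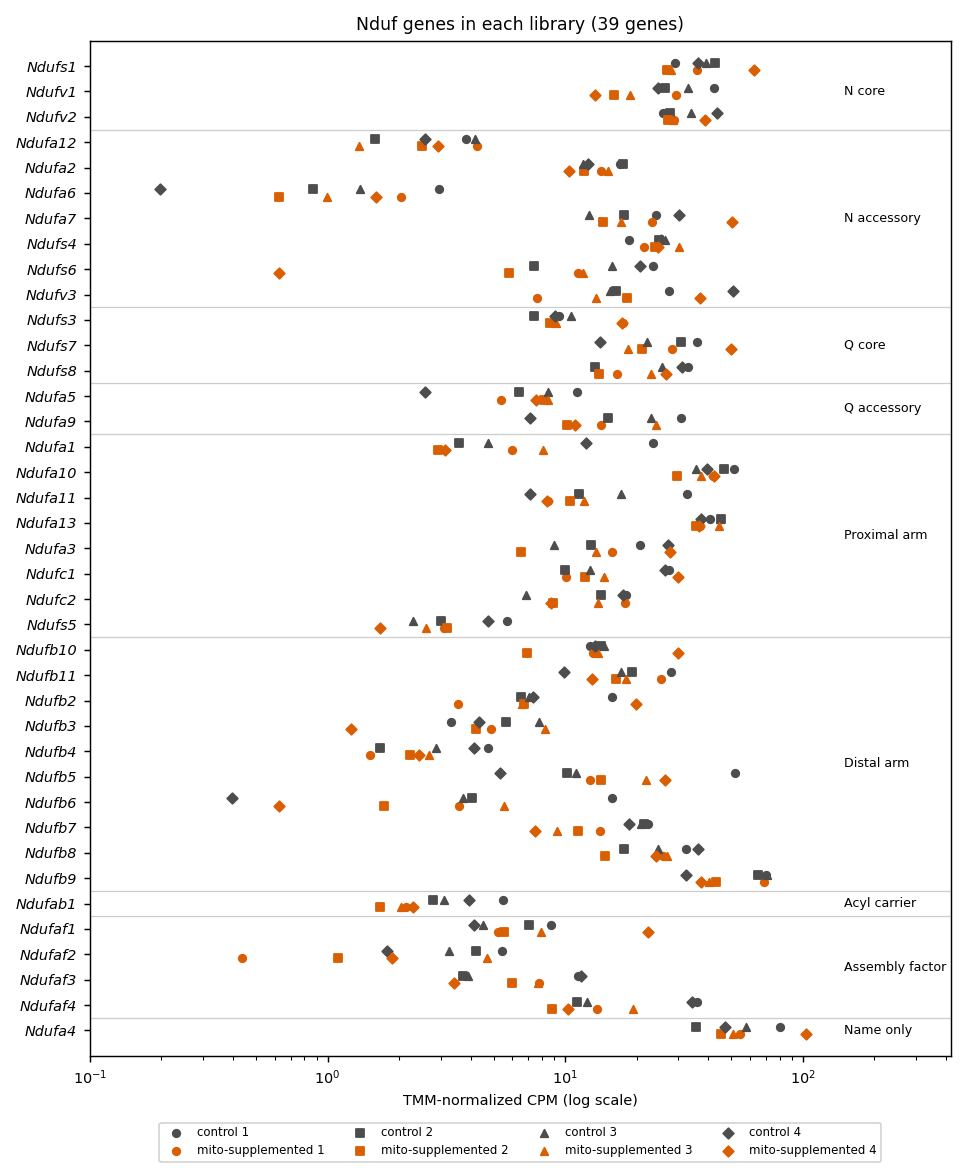
TMM-normalized CPM (log axis) of 39 Nduf genes in each of the 8 libraries, with controls in grey, mito-supplemented samples in orange and a symbol for each replicate number. Groups lie apart for Ndufb7 and Ndufab1, single libraries lie far out for Ndufs6, Ndufb6, Ndufa6 and Ndufb5, and Ndufa13, Ndufs4 and Ndufa10 are tight.

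Measured levels, in counts per kilobase, differed widely between subunits of the same complex. The RNA was amplified, and how reads with more than 1 match were counted was not given. These levels may therefore differ from those of the mRNA in the follicles. Per kilobase of the longest principal transcript, and averaged over the 8 libraries, the highest accessory subunits were Ndufb9 (76.0 CPM per kilobase), Ndufa7 (45.0) and Ndufb8 (37.2). The lowest of those tested were Ndufab1 (0.841), Ndufb2 (2.10) and Ndufa6 (2.26). For Ndufb2 this rank depended on the gene model, since with its shortest principal transcript the level was 20.1 CPM per kilobase, and Ndufab1 was at 2.07 CPM per kilobase on that scale. Ndufc1, at 14.4 CPM per kilobase, came to 56.9 on it, and its transcript shares up to 116 bases with a copy. Ndufa8, a proximal arm subunit of the intermembrane space that did not pass the filter, was at 0.365 CPM per kilobase, with 21, 3, 6 and 1 counts in control replicates 1 to 4, against 9, 5, 2 and 0 in mito-supplemented replicates 1 to 4. Between the groups, the log2 fold changes of Ndufb9 and Ndufb8 were -0.33 and -0.27 (SEs 0.37 and 0.38), and that of Ndufb8 was 0.05 with library size only. Those of Ndufb2 and Ndufa6 were near 0, -0.0035 and -0.06 (SEs 0.63 and 0.93), and changed sign in several settings.

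The spread over libraries also differed between members. The SD of log2 CPM over the 8 libraries had a median of 0.56 among the 35 subunits tested and 0.77 among the 4 Ndufaf genes. It was 0.98 among all genes tested, which had a lower median level (3.47 against 3.92 log2 CPM in the subunits). For the genes of complexes II, III, IV and V the median SD was 0.92, 0.64, 0.54 and 0.42. Ndufa13, a proximal arm subunit also known as GRIM-19, was the steadiest (SD 0.15), at 37.3 to 45.4 CPM in controls against 35.5 to 44.5 CPM in mito-supplemented samples. Ndufs4 (0.21) and Ndufa10 (0.24) followed. Ndufb6 and Ndufs6 varied most, with SDs of 1.60 and 1.59, through libraries with 2 to 9 counts. Over the 35 subunits, the difference in log2 CPM (root mean square) was on average 0.96 between libraries of the same group (12 pairs) and 0.94 between libraries of different groups (16 pairs). Subunit profiles therefore differed as much within groups as between them. Over all genes tested the 2 values were also close, at 1.73 within groups and 1.79 between them. The 5 libraries control replicates 2 and 3 and mito-supplemented replicates 1 to 3 were within 0.52 to 0.71 of each other over their 10 pairs. Control replicates 1 and 4 and mito-supplemented replicate 4 stood apart, each at 0.91 or more from every other library, and of these mito-supplemented replicate 4 is the only library with its label prefix.

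The subunits were also summed. The 36 subunits came to 873, 614, 637 and 654 CPM in control replicates 1 to 4, against 617, 487, 589 and 700.3 CPM in mito-supplemented replicates 1 to 4. The groups overlapped, with means of 694 ± 120.2 and 598 ± 88.0 CPM (SD, n = 4), a ratio of 0.862. Control replicate 1 was the highest of all, and without it the control mean was 635 CPM and the ratio 0.942. Of the 40 genes tested, 20 had their highest level in that library.

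Under TMM scaling the median log2 fold change of the 35 subunits was -0.19, with 28 of 35 below 0, beside a median of -0.10 and 55.1% below 0 over all genes tested, while with library size only the subunit median was 0.05, with 15 of 35 below 0. That scaling moved the median of all genes by 0.27, to 0.17. Relative to the median of all genes, the subunit median was -0.09 under TMM scaling and -0.12 with library size only, and it was -0.01 with the GC and length offset, 0 without mito-supplemented replicate 2 and -0.20 with limma-voom and quality weights. Without control replicate 1 the subunit median was -0.03, with 22 of 35 below 0. For the core subunits the median was -0.09 under TMM scaling, with 4 of 7 below 0, but 0.29 with library size only, with 2 of 7 below 0, and -0.02 without control replicate 1, with 5 of 7 below 0.

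**Figure D4:**
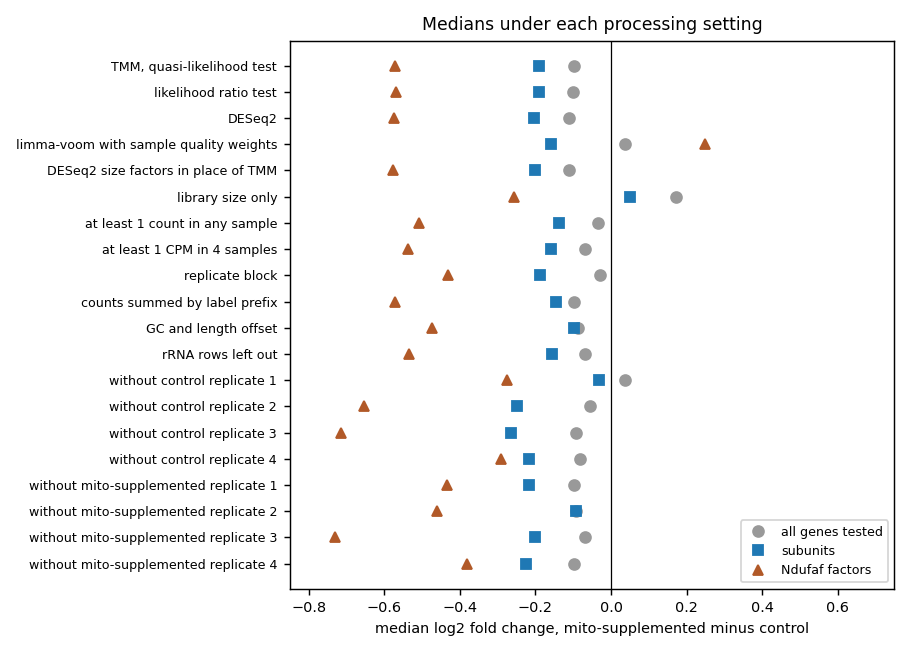
Median log2 fold change (mito-supplemented minus control) of all genes tested, the Nduf subunits and the 4 Ndufaf genes under each processing setting. The subunit median lies at -0.19 with TMM scaling, at -0.03 without control replicate 1 and at 0.05 with library size only, and the Ndufaf median turns to 0.25 with limma-voom and quality weights.

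The 4 Ndufaf assembly factors did not all have the same sign, and 0 of 4 had an unadjusted p under 0.05 in edgeR's quasi-likelihood test, beside 7.71% of all genes. Ndufaf1, which works with Ecsit and Acad9 on the proximal membrane arm, was at 8.74, 7.06, 4.52 and 4.14 CPM in control replicates 1 to 4, against 5.24, 5.54, 7.89 and 22.5 CPM in mito-supplemented replicates 1 to 4. Its log2 fold change of 0.74 (SE 0.63, adjusted p = 0.755) rested on the last library and was 0.06 without it. Ndufaf2, a chaperone of a late intermediate, was at 5.41, 4.20, 3.26 and 1.78 CPM in controls against 0.437, 1.11, 4.67 and 1.88 CPM in mito-supplemented samples (log2 fold change -0.86, SE 0.86, adjusted p = 0.789). Its value depended on single libraries, at -1.65 when mito-supplemented replicate 3 was left out and -0.49 when replicate 1 of that group was. Its transcript also holds a stretch that matches 19 other genes. Ndufaf4, which works with Ndufaf3 on the Q module, was at 36.0, 11.3, 12.4 and 34.3 CPM in controls against 13.6, 8.80, 19.4 and 10.3 CPM in mito-supplemented samples. Control replicates 1 and 4 were high and the other 2 controls lay within the mito-supplemented range (log2 fold change -0.85, SE 0.52, adjusted p = 0.697). Ndufaf3 had a log2 fold change of -0.30 (SE 0.61), which was 0.02 with library size only. The median of the 4 was -0.57 under TMM scaling, -0.26 with library size only and -0.28 without control replicate 1, and it was 0.25 with limma-voom and quality weights. Their summed level was 40.9 ± 18.6 CPM in controls against 31.5 ± 8.77 CPM in mito-supplemented samples (SD, n = 4), a ratio of 0.771, and without control replicate 1 it was 0.926. The counts of these 4 genes were 5.76 ± 2.05% of the subunit counts in controls against 5.24 ± 1.11% in mito-supplemented samples (SD, n = 4).

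A further 4 Ndufaf genes are listed under older symbols, and 13 assembly factors carry other names. Of the resulting 21 assembly genes, all tested, 14 were below 0 in log2 fold change under TMM scaling, 11 with library size only and 13 without control replicate 1, and the medians were -0.30, -0.10 and -0.01. Of the 21, 0 had an unadjusted p under 0.05, beside 2.4% of all genes lower and 5.31% higher. Tmem186, which belongs to the assembly complex of the proximal arm, was at 17.6, 11.1, 9.26 and 10.9 CPM in control replicates 1 to 4, against 4.51, 7.62, 4.08 and 0.209 CPM in mito-supplemented replicates 1 to 4. Under TMM scaling, every mito-supplemented library was below every control (log2 fold change -1.57, SE 0.82, adjusted p = 0.669 in edgeR's quasi-likelihood test). Mito-supplemented replicate 4 had 3 counts of Tmem186. Control replicate 4 had 55 counts of it in a total of 10370045, and mito-supplemented replicate 2 had 110 in 13370911. By library totals alone, its groups therefore overlapped. Foxred1, a flavin-containing assembly factor, also had no overlap under TMM scaling. It was at 5.05 to 8.88 CPM in controls against 1.32 to 4.92 CPM in mito-supplemented samples (log2 fold change -1.15, SE 0.66, adjusted p = 0.681 in the same test). By library totals its groups overlapped too, with 45 counts of 10370045 in control replicate 4 against 88 of 16116434 in mito-supplemented replicate 3. The other 19 overlapped between the groups. Among them, Lyrm2 had the highest log2 fold change of the 21, 1.10 (SE 0.53, adjusted p = 0.660 in edgeR's quasi-likelihood test). It was at 3.09 to 8.49 CPM in controls against 8.21 to 17.8 CPM in mito-supplemented samples. Ndufaf5 followed, with a log2 fold change of 1.03 (SE 0.68, adjusted p = 0.713 in the same test). The genes of this paragraph are named after their values were seen. Of all genes, 2.03% were lower and 3% higher without overlap.

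**Figure D5:**
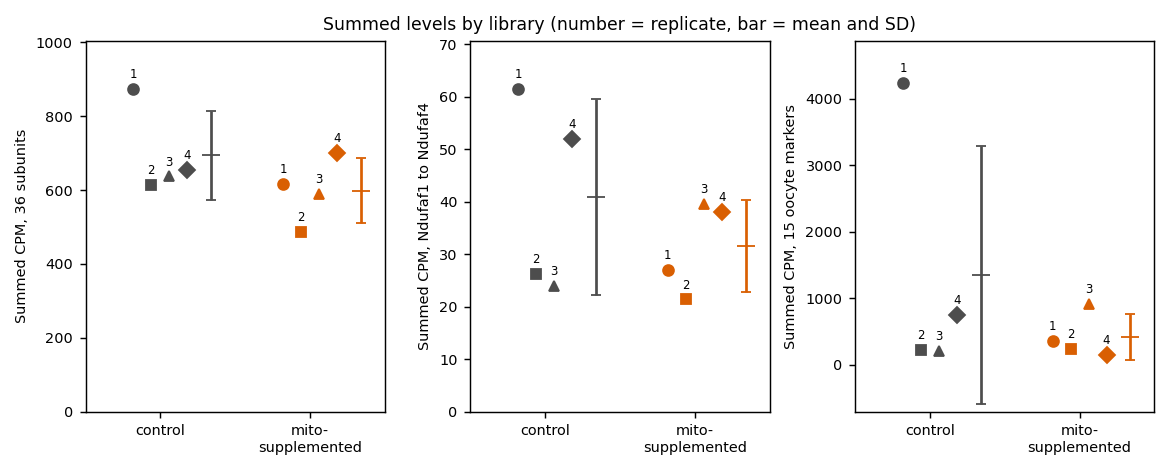
Summed TMM-normalized CPM of the 36 Nduf subunits, of Ndufaf1 to Ndufaf4 and of 15 oocyte marker genes in each library, with the replicate number beside each point and the mean and SD at the right of each group. Control replicate 1 is the highest in all 3 panels, at 873, 61.5 and 4235 CPM.

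Cell markers differed between libraries as well. In bulk samples fewer cells of a type and less RNA per cell cannot be told apart. The 15 oocyte markers, with Nlrp5 the most abundant and none at 0 in all libraries, summed to 4235, 218, 203 and 749 CPM in control replicates 1 to 4, against 351, 234, 917 and 144 CPM in mito-supplemented replicates 1 to 4. Of the 14 tested, 14 had a log2 fold change below 0, with a median of -1.65 (-1.54 with library size only), but without control replicate 1 only 4 of 14 did, with a median of 0.27. The 10 pregranulosa markers, led by Wt1, summed to 258, 206, 275 and 900.2 CPM in control replicates 1 to 4, against 477, 1190, 769 and 1315 CPM in mito-supplemented replicates 1 to 4, and 9 of 10 had a log2 fold change above 0 (median 1.09). Other cell types were present too. The 8 surface epithelium markers, led by Aldh1a1, summed to 195, 179, 182 and 554 CPM in the controls and 464, 965, 584 and 549 CPM in the mito-supplemented libraries (7 of 8 above 0, median 1.74). The 8 stroma markers, led by Col3a1, summed to 336, 448, 649 and 2199 CPM in the controls and 949, 978, 2480 and 2182 CPM in the mito-supplemented libraries (8 of 8 above 0, median 0.74). For the pregranulosa, surface epithelium and stroma markers, control replicate 4 lay within the mito-supplemented range. The 7 endothelial markers, led by Kdr, summed to 25.7, 27.8, 42.9 and 212 CPM in the controls and 94.9, 226, 179.6 and 200.7 CPM in the mito-supplemented libraries (5 of 6 tested above 0, median 1.10). The 6 smooth muscle markers, led by Myh11, summed to 34.3, 21.2, 47.6 and 266 CPM in the controls and 44.3, 75.8, 89.1 and 359.8 CPM in the mito-supplemented libraries (5 of 6 above 0, median 0.64). Control replicate 4 lay within the mito-supplemented range for these lists too. The 8 immune markers, led by Lyz2 and with C1qb at 0 throughout, were spread unevenly, at 13.2, 132, 116 and 21.7 CPM in the controls and 751, 12.1, 17.6 and 8.69 CPM in the mito-supplemented libraries (5 of 5 tested above 0, median 1.26). Red cell markers, led by Slc4a1, were at 3906 and 2495 CPM in control replicates 2 and 3 and 4877 CPM in mito-supplemented replicate 1, against 23.8 to 79.7 CPM in the other 5 libraries. Of the 7 red cell markers 4 were tested, with a median of -0.24 and 4 of 4 below 0, but 2 of 4 with library size only. Apart from that of the oocyte markers, these medians had the same sign with library size only and without control replicate 1. In these settings, in that order, they were 1.56 and 1.14 for the pregranulosa, 2.38 and 1.77 for the surface epithelium, 1.45 and 0.50 for the stroma and 1.82 and 0.87 for the endothelial markers (4 of 6 above 0 without control replicate 1). For the smooth muscle, immune and red cell markers they were 1.37 and 0.40 (4 of 6 above 0 without control replicate 1), 1.22 and 1.25, and -0.06 and -0.49 (4 of 5 tested below 0 without control replicate 1). The part of these cell markers in the values of the complex I genes was not tested.

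The other complexes of the chain are given for comparison. Under TMM scaling the median log2 fold change was 0.10 for complex II (3 of 7 genes below 0), -0.27 for complex III (10 of 14), -0.31 for complex IV (11 of 13) and -0.30 for complex V (12 of 17), and with library size only it was 0.42, -0.03, -0.11 and -0.01. Without control replicate 1, the medians of complexes III and IV turned to 0.16 and 0.03, while that of complex V was -0.19 (11 of 17 below 0) and that of complex II 0.02 (3 of 7). Complex I was thus within the range of the other complexes under TMM scaling.

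Promoter sequence was a further feature that the choice of genes had not used. RefSeq windows of GRCm38.p6, from 250 bases before to 50 bases after each start, were matched for 37 of the 42 Nduf genes (39 windows). Motifs of 3 factors linked to nuclear genes of the electron transfer chain were searched on both strands, YY1 (AAGATGGC), NRF1 (GCGCATGC) and GABP (CCGGAAGT). The YY1 letters were in 7 of the 39 windows (17.9%) and in 2.75% of all 32851 windows. All 7 matches were on the strand of the gene, their first bases were at positions 23 to 39, the start being position 1, and in 7 of 7 the ATG inside the letters was the annotated start codon. The stretches are shown because the position is shared, with the match in capitals.
Ndufa3, chr7:3617384-3617413 (+ strand): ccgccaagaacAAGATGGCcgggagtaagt
Ndufa9, chr6:126849097-126849126 (- strand): cattgtgggagAAGATGGCggccgccgtcc
Ndufb8, chr19:44555393-44555422 (- strand): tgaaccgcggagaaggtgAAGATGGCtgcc
Ndufc1, chr3:51408915-51408944 (- strand): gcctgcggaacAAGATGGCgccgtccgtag
Ndufs4, chr13:114388045-114388074 (- strand): gcgtttgcctacaggAAGATGGCggcggtc
Ndufs6, chr13:73328433-73328462 (- strand): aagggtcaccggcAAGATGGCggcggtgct
Ndufs7, chr10:80249462-80249491 (+ strand): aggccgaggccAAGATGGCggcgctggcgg

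Between the groups, the log2 fold changes of these 7 genes ran from -1.18 for Ndufs6 to 0.19 for Ndufs7, and the groups overlapped for each of them. The NRF1 letters were in 4 of the 39 windows (10.3%) and in 2.71% of all windows. In Ndufa11 and Ndufaf4 they formed a palindrome with overlapping matches on both strands, and the first bases of the first matches were at positions -113 to -8 from the start. The stretches are shown because the palindrome recurs in a subunit and an assembly factor, with the letters in capitals.
Ndufa11, chr17:56717691-56717720 (+ strand): acctgcactgcGCGCATGCGCgcacgcctt
Ndufa6, chr15:82354356-82354385 (- strand): tccgcggtagaGCATGCGCattgcagagcc
Ndufa8, chr2:36049328-36049357 (- strand): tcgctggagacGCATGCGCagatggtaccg
Ndufaf4, chr4:24897959-24897988 (+ strand): cccagatgtctGCGCATGCGCctgtgcgga

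The GABP letters were in 1 of the 39 windows (2.56%), that of Ndufs3, and in 3.89% of all windows. In Ndufs3 they began at the start itself and lay on the strand opposite to the gene.
Ndufs3, chr2:90904703-90904732 (- strand): tgcacatttccACTTCCGGtccgtgccctt

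The windows of Ndufb7 and Ndufab1 held none of these letters. A match describes the sequence only, and binding was not measured.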

How the data were processed

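Total RNA from primordial follicles was sequenced in 4 control and 4 mito-supplemented samples. Per the submitters' processing notes and the paper's methods, the authors trimmed the reads (Trim Galore 0.4.4), mapped them to mm10 (STAR 2.5.3a) and deposited counts per gene from featureCounts. The annotation release, strand setting and handling of multi-mapping reads are not given in the sources used here.

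Counts were analysed with edgeR 4.0.16 in R 4.3.3, using TMM normalization, the default expression filter and the quasi-likelihood test, with Benjamini-Hochberg adjustment over all genes. Genes were called at an adjusted p under 0.05 together with a 2-fold difference. Standard errors came from the F statistic, and log2 CPM used a prior count of 2. DESeq2 1.42.0, limma 3.58.1, other scalings and filters, a replicate block, an offset for GC content and length, sums by label prefix and leaving out each library were alternatives. Leaving out ribosomal RNA, and the Ndufa4l2 ratio without each library, were added after the data were seen. For 97.4% of the genes tested, length and GC content were known. The tests were checked on simulated counts. Positions and lengths came from GENCODE M21, which matched 24547 symbols and all 42 Nduf symbols. Near-identical copies were matches of at least 75 bases at 97% identity.

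Named genes were core subunits, the Ndufaf genes, Ndufa4 and Ndufa4l2, the accessory subunits with the 3 largest changes in each direction, with an unadjusted p under 0.05 or without overlap, and the 3 highest and 3 lowest per kilobase. Members and lists were chosen with earlier results of these data known. A control library that the authors excluded was not analysed here.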

Additional observations from a re-analysis of the deposited data

Results flagged for a closer look

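Among the log2 CPM of the 40 tested Nduf genes and the summed levels of subunits and Ndufaf genes, each group of 4 libraries was searched for a library far from the others, and 3 of the 84 groups had one, where chance gives about 1 in 20. Ndufb2 in control replicate 1 was at 3.99 log2 CPM, where the other controls were between 2.73 and 2.89. Ndufb9 in control replicate 4 was at 5.01 log2 CPM, where the others were between 6.03 and 6.15. Ndufs4 in control replicate 1 was at 4.23 log2 CPM, where the others were between 4.64 and 4.72.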

How the results depend on the processing

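Over the alternatives, the quasi-likelihood test in edgeR called 0 Nduf genes and 0 genes in all whichever scaling, filter, block, offset or left-out library was used. The likelihood ratio test called 58 genes, DESeq2 141 and limma-voom with quality weights 2578, the last with 1 Nduf gene (Ndufb7). The number of Nduf genes with an unadjusted p under 0.05 was 1 in the main test, 3 with limma-voom and quality weights (Ndufb7, Ndufb9 and Ndufv1), where 37.6% of all genes were under it, 0 with library size only (9.67% of all genes), and 0 to 3 with each library left out. These last counts include Ndufa4l2, which passed the filter through its control counts in 5 of the fits, and without it they were 0 to 2, beside 3.95% to 14.1% of all genes. The labels do not say whether same-numbered libraries were paired. Their correlations were -0.24, -0.19, -0.33 and 0.22. These cannot decide it, since differently numbered libraries reached 0.53 (control replicate 2 with mito-supplemented replicate 1). The fit with a replicate block had 0 Nduf genes called and 0 with an unadjusted p under 0.05 (7.07% of all genes). The number without overlap was 2 (5.03% of all genes), and it was 0 with library size only (6.83% of all genes), 15 with counts summed by label prefix, where 2 sums stand against 2 (44.4% of all genes), and 2 to 4 with each library left out (5.72% to 13.7% of all genes). Without Ndufa4l2 it was 14 for the prefix sums and still 2 to 4 for the left-out libraries. The median of the Ndufaf genes was 0.25 with limma-voom and quality weights.

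Of 437 values for the 23 named genes tested, 399 kept their direction and their side of the threshold, 1 passed it (Ndufb7 with limma-voom and quality weights, -1.04) and 37 changed sign, and 9 genes never changed sign. With limma-voom and quality weights the log2 fold change was 0.084 for Ndufa1, 0.65 for Ndufaf3, 0.046 for Ndufaf4, -0.33 for Ndufb10, -0.41 for Ndufs1 and -0.18 for Ndufs7. With library size only it was 0.016 for Ndufaf3, 0.12 for Ndufb2, 0.053 for Ndufb8 and 0.29 for Ndufv2. With DESeq2 size factors it was 0.00070 for Ndufb2. Without a filter it was 0.0022 for Ndufa6 and 0.053 for Ndufb2, with 1 CPM in 4 samples 0.034 for Ndufb2, and without ribosomal RNA, a setting chosen after seeing the data, 0.036 for Ndufb2. With counts summed by label prefix it was 0.45 for Ndufb2 and 0.15 for Ndufv2, and with the GC and length offset 0.076 for Ndufb2 and 0.10 for Ndufv2. With the replicate block it was 0.16 for Ndufa6 and -0.021 for Ndufs1. Over the fits that each lacked 1 library it ran from -0.10 to 0.46 for Ndufa4, -0.38 to 0.67 for Ndufa6, -0.18 to 0.55 for Ndufa7, -0.25 to 0.47 for Ndufb10, -0.67 to 0.42 for Ndufb2, -1.56 to 0.086 for Ndufb6, -0.26 to 0.21 for Ndufs1, -0.0023 to 0.17 for Ndufs4, -0.16 to 0.42 for Ndufs7 and -0.19 to 0.092 for Ndufv2. Why signs changed between settings was not tested. Ndufa8 and Ndufa4l2 were limited by their counts, and control replicate 4 by its depth.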
